A study of Mus musculus with 8 samples.

Results

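The 9 genes described here encode proteins that take up, store, make, carry and degrade retinoic acid (RA), the active form of vitamin A. They are *Stra6* (uptake), *Lrat* (storage), *Rdh10*, *Dhrs3* and *Aldh1a2* (synthesis and its reversal), *Crabp1* and *Crabp2* (intracellular carriers), and *Cyp26a1* and *Cyp26b1* (degradation). They were chosen by gene symbol for these functions. Each symbol matched 1 of the 55421 rows of the count table, and all 9 were among the 20477 genes that had enough reads to be tested.

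RNA-seq had been performed on primary cultures of mouse spermatogonia, referred to as SSC cultures, established from testes of 6-day-old C57BL/6XDBA/2 F1 pups. All cultures grew on a feeder layer of irradiated embryonic fibroblasts (MEFs) from outbred CF1 mice, so a library can hold feeder RNA. Veh cultures stayed in complete SSC medium, which contains serum, a serum replacement, FGF2 and GDNF, and RA cultures received 100 nM RA in the same medium. NR cultures were placed in nutrient restriction medium, made of 10% complete medium and 90% EBSS (Earle's Balanced Salt Solution), in which serum and growth factors are diluted together with the nutrients. NRRA cultures received that medium with 100 nM RA. The treatments lasted 2 days, and each of the 4 conditions had 2 libraries, which the study describes as independent biological replicates. RA was dissolved in DMSO, and the sources used here do not say whether Veh and NR cultures received DMSO.

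STRA6 is a membrane receptor that brings retinol into cells, and LRAT esterifies retinol into its storage form. RDH10 oxidizes retinol to retinal, DHRS3 reduces retinal back to retinol, and ALDH1A2 oxidizes retinal to RA. In the cytosol CRABP1 and CRABP2 bind RA, and CRABP2 can hand it to the RA receptors in the nucleus, whereas the cytochromes CYP26A1 and CYP26B1 oxidize RA and thereby remove it. RA receptors bind DNA as dimers at direct repeats of a short half-site. In the testis RA drives spermatogonia to differentiate and to enter meiosis, and CYP26 enzymes are known to keep germ cells from RA.

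Sequences upstream of *Cyp26a1*, *Cyp26b1* and *Dhrs3* are shown as examples from the genes whose transcripts rose with RA in both media, as given further on. *Stra6* and *Crabp2* rose in both media as well, and no sequence of them is shown. The sequences shown come from RefSeq on GRCm38.p6, run 5′ to 3′ along the strand of the gene and end before every annotated start of the gene. Capitals mark a direct repeat of half-sites spaced by 5 bases, and the sequences are chr19:37697558-37697797 (plus strand) for *Cyp26a1*, chr6:84593909-84594060 (minus strand) for *Cyp26b1* and chr4:144892577-144892826 (plus strand) for *Dhrs3*.
Cyp26a1: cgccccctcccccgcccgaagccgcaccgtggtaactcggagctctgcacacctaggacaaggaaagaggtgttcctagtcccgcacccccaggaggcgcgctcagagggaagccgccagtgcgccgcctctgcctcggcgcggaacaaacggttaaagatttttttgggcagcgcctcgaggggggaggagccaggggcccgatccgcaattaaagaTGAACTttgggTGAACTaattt
Cyp26b1: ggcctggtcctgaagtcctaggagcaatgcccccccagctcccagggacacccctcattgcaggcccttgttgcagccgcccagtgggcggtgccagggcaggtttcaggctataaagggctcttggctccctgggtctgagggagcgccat
Dhrs3: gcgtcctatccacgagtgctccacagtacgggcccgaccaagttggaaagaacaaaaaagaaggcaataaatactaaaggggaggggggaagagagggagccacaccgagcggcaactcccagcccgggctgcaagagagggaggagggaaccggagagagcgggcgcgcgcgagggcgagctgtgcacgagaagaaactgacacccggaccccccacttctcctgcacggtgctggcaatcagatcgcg
The search covered the half-site AGGTCA, its variant AGTTCA, the form GGGTCA and the form GGTTCA on both strands, as direct repeats spaced by 1, 2 or 5 bases, in windows from 250 bases before to 50 bases after each start. The 3 repeats share their half-sites, so a single half-site can belong to more than 1 repeat. A repeat spaced by 5 bases was present in 32 of 32851 windows of all genes (0.0974%). For the 9 genes there were 12 windows, which belonged to 7 of them, and 1 of the 12 held the repeat. That window was the one of *Cyp26a1*, in which the repeat lies at chr19:37697776-37697792, from 32 to 16 bases before the RefSeq start, and reads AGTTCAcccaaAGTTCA on the minus strand. Repeats spaced by 1 or 2 bases were present in 0.222% and 0.268% of all windows and in 0 of the 12. A single half-site was present in 43.7% of all windows, in the window of *Cyp26a1* (2 half-sites, both in the repeat) and in 1 of the 4 windows of *Stra6*. The other windows of *Stra6* and those of *Cyp26b1*, *Dhrs3*, *Crabp1*, *Aldh1a2* and *Lrat* held 0 half-sites. *Crabp2* and *Rdh10* had no window in the set searched, so the sequence at their starts was not analysed here.

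The libraries held between 19261333 and 30023585 assigned reads. Values are given as CPM, the reads of a gene relative to the scaled total of its library, and 1 CPM stands for 19.2 to 31.1 reads, so genes below 1 CPM rest on few reads. *Stra8*, a gene induced by RA in germ cells, was read at 1.14 and 1.51 CPM for Veh, 632 and 653 for RA, 14.6 and 14.3 for NR, and 917 and 957 for NRRA. *Rarb*, an RA receptor gene that RA induces in many cells, was read at 0.446 and 0.417 CPM for Veh, 42.2 and 39.8 for RA, 0.482 and 0.608 for NR, and 47.5 and 48.8 for NRRA. Both genes separated the libraries with RA from those without it, in accord with the labels. Of 6 genes known to be induced by RA, all 6 had an adjusted p under 0.05 and a higher level in RA and in NRRA than in Veh, and 5 of them changed at least 2-fold in each, beside 4.74% and 9.91% of all tested genes.

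Markers of germ cells and of feeder cells were both present. The summed level of 6 germ cell markers, among them *Ddx4* and *Dazl*, lay between 806 and 1072 CPM in all 8 libraries. That of 12 fibroblast markers, mostly collagen and other matrix genes, was 20646 and 20762 CPM for Veh, 17655 and 16380 for RA, 33386 and 34884 for NR, and 27241 and 26417 for NRRA. The sum thus stood higher in both NR media. At an adjusted p under 0.05, 11 of the 12 were higher and 0 lower in NR vs Veh (21.7% of all tested genes higher, 22.2% lower), whereas in NRRA vs Veh 7 were higher and 5 lower (30.1% and 28.7%), among the latter *Lum* (-0.74 on the log2 scale) and *Fn1* (-0.55). The summed level of 9 markers of undifferentiated spermatogonia was 934 and 867 CPM for Veh, 339 and 331 for RA, 762 and 780 for NR, and 156 and 157 for NRRA. For 6 markers of differentiating spermatogonia it was 250 and 238 CPM for Veh, 1103 and 1107 for RA, 252 and 255 for NR, and 1568 and 1614 for NRRA, of which *Stra8* and *Kit* made up most in the libraries with RA. In NR vs Veh this sum stayed level while its members moved. At an adjusted p under 0.05, *Stra8* (3.44 on the log2 scale), *Neurog3* (3.27), *Kit* (1.91) and *Sohlh1* (1.07) were higher. *Sohlh2*, the most abundant of the 6 in Veh, was lower (-0.60). That makes 4 higher and 1 lower, beside 21.7% and 22.2% of all tested genes. Among somatic cells of the testis, 8 Sertoli cell markers summed to 17.0 to 49.97 CPM, with *Fshr* and *Amh* at or near 0 while *Sox9* reached up to 37.5 CPM and *Wt1* up to 9.05 CPM. The 6 Leydig cell markers summed to 5.81 to 15.2 CPM, with *Lhcgr* and *Insl3* at or near 0 and *Star* at up to 13.7 CPM. The 4 peritubular myoid markers, of which *Acta2* made up most, summed to 85.8 and 84.7 CPM for Veh, 60.5 and 59.4 for RA, 518 and 525 for NR, and 894 and 892 for NRRA, the widest shift of these lists between the media. This sum thus mainly describes *Acta2*, and which cells of the culture held its transcript was not tested. The part of these shifts in the results below was not tested. In a whole culture, fewer cells of a type and less RNA per cell cannot be told apart.

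Addition of RA raised the transcripts of both degrading enzymes, of the RA carrier *Crabp2*, of the retinal reductase *Dhrs3* and of the retinol receptor *Stra6*, in complete medium as well as in NR medium. A gene was called where its adjusted p was under 0.05 in edgeR's quasi-likelihood F test over all tested genes and its change was at least 2-fold. The common biological coefficient of variation, the spread between libraries of a condition beyond counting noise, was 3.35%. The adjusted p values rest on that small spread, and how far it covers separately established cultures is not known here. In complete medium (RA vs Veh) 5 of the 9 genes were called, all higher, against 7.49% of all tested genes (4.74% higher and 2.75% lower). In NR medium (NRRA vs NR) 6 were called, all higher, against 8.7% of all tested genes (4.56% higher and 4.14% lower). The sixth was *Lrat*. Whatever the size of the change, an adjusted p under 0.05 was reached in RA vs Veh by 5 genes upward and 1 downward (43.2% of all tested genes, 19.8% higher and 23.4% lower) and in NRRA vs NR by 7 upward and 2 downward (43.4%, with 21.3% higher and 22.1% lower). The median over the 9 genes, as a log2 fold change, was 1.24 for complete and 2.70 for NR medium, against -0.019 and 0.0056 over all tested genes. The summed markers of differentiating spermatogonia were higher by 2.18 in RA vs Veh and by 2.65 in NRRA vs NR on the log2 scale, those of undifferentiated spermatogonia lower by 1.43 and 2.30, and those of fibroblasts lower by 0.28 and 0.35. The rise of the differentiating sum was mostly that of *Stra8* and *Kit*, and the median log2 fold change of its 6 markers was 0.095 and 0.63. At an adjusted p under 0.05, 3 of these 6 were higher and 1 lower (*Neurog3*, by 4.08) in RA vs Veh. In NRRA vs NR 4 were higher and 2 lower. The part of these shifts in the effects of RA was not tested.

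**Figure D1:**
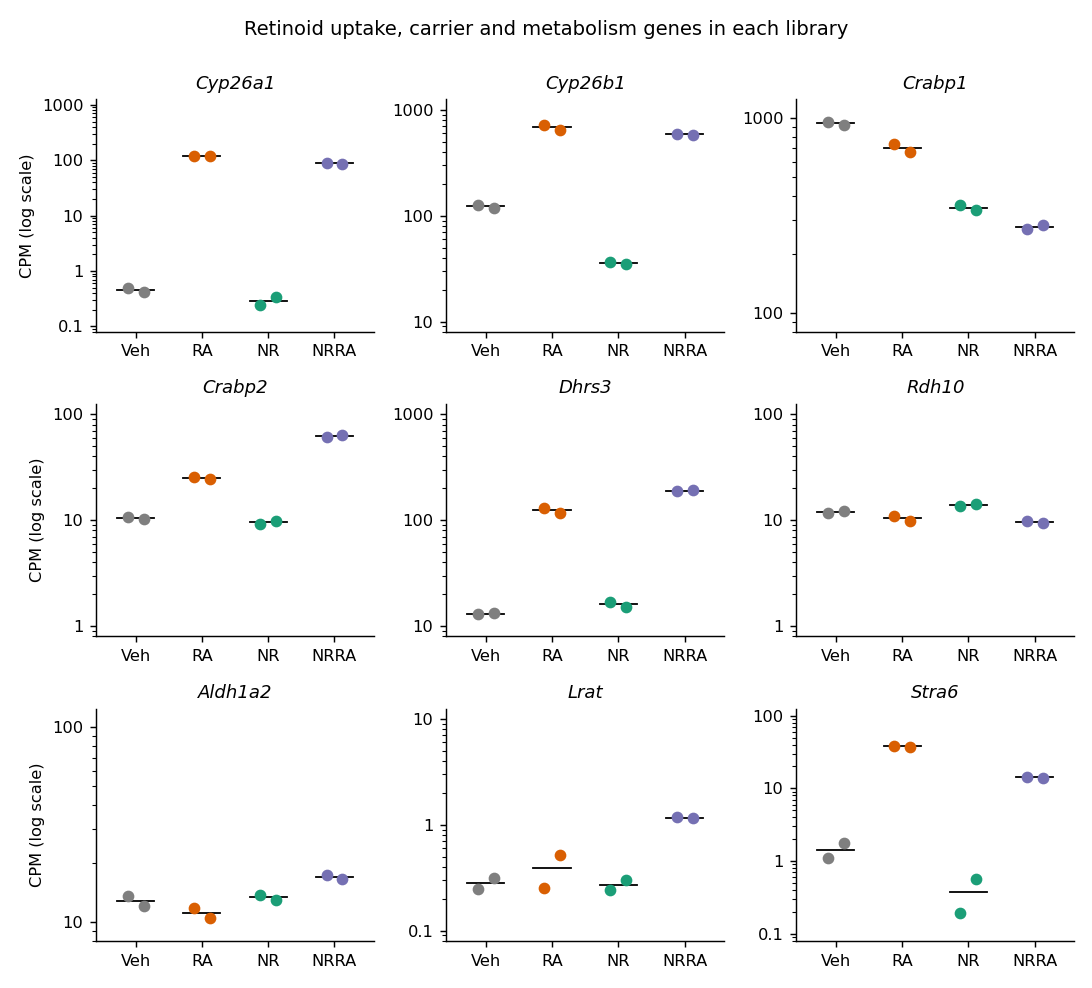
Level of each of the 9 genes in every library, as CPM on a log axis, with 1 panel per gene, 1 point per library and a line at the mean of the 2 libraries of each condition. *Cyp26a1*, *Cyp26b1*, *Dhrs3* and *Stra6* are higher in both conditions with RA, *Crabp2* is highest in NRRA, *Crabp1* falls from Veh (942 CPM on average) to NRRA (277 CPM), and *Rdh10* and *Aldh1a2* stay between 9.41 and 17.5 CPM.

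*Cyp26a1* (ENSMUSG00000024987, chromosome 19 from 37697798 to 37701536, plus strand) had the largest response to RA of the 9 genes. Its level was 0.495 and 0.417 CPM for Veh, 118 in both RA libraries, 0.241 and 0.342 for NR, and 89.0 and 86.5 for NRRA. The libraries without RA held 5 to 10 reads of it each, and those with RA 2323 to 3405. The log2 fold change was 7.999 in RA vs Veh (SE 0.12, adjusted p = 6.99e-26), a change of 256-fold, and 8.18 in NRRA vs NR (SE 0.127, adjusted p = 1.21e-25). Both SE were derived from the F statistic and understate the uncertainty, since the libraries without RA held few reads. In NR vs Veh, between those libraries, the SE was 0.452. Among all 20477 tested genes the values of 7.999 and 8.18 were the fifth and the third largest log2 fold changes of the respective comparison.

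*Cyp26b1* (ENSMUSG00000063415, chromosome 6 from 84571414 to 84593908, minus strand) was, unlike *Cyp26a1*, well expressed without added RA. Its level was 125 and 119 CPM for Veh, 713 and 647 for RA, 36.8 and 35.0 for NR, and 588 and 582 for NRRA. The libraries of the 4 conditions did not overlap, with NR the lowest and RA the highest. RA raised *Cyp26b1* by 2.48 on the log2 scale in complete medium (SE 0.0482, adjusted p = 3.44e-23) and by 4.03 in NR medium (SE 0.0542, adjusted p = 5.56e-27).

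Since transcripts of different length collect different numbers of reads, the enzymes were compared as CPM per kb of exon. In that unit *Cyp26a1* made up 1.06 and 0.935% of the sum of both enzymes in Veh, 30.9 and 33.0% for RA, 1.74 and 2.57% for NR, and 29.0 and 28.6% for NRRA. *Cyp26b1* thus remained the more abundant transcript of the pair in every library. The sum itself was 23.6 and 22.5 CPM per kb in Veh, 193 and 181 for RA, 6.99 and 6.71 for NR, and 155 and 152 for NRRA. The sum in NR was below that in Veh, and the sums in RA and NRRA differed much less from each other.

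The carriers went in opposite directions. *Crabp1* (ENSMUSG00000032291, chromosome 9 from 54764748 to 54773110, plus strand) was read at 961 and 923 CPM for Veh, 742 and 670 for RA, 357 and 340 for NR, and 269 and 284 for NRRA. RA lowered it by a small amount that passed the test but not the 2-fold threshold, with log2 fold changes of -0.42 in complete medium (SE 0.0448, adjusted p = 2.59e-08) and -0.33 in NR medium (SE 0.0461, adjusted p = 1.45e-06). *Crabp2* (ENSMUSG00000004885, chromosome 3 from 87948666 to 87953376, plus strand) was read at 10.7 and 10.2 CPM for Veh, 25.4 and 24.2 for RA, 9.30 and 9.80 for NR, and 60.9 and 63.2 for NRRA. Its NRRA libraries stood above all others. RA raised *Crabp2* by 1.24 on the log2 scale in complete medium (SE 0.0859, adjusted p = 7.14e-12) and by 2.70 in NR medium (SE 0.074, adjusted p = 2.17e-20).

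Per kb of exon, *Crabp2* made up 0.674 and 0.663% of both carriers in Veh, 2.03 and 2.15% for RA, 1.56 and 1.72% for NR, and 12.1 and 11.9% for NRRA. The share of *Crabp2* was thus highest in NRRA, where *Crabp1* was lowest. The carriers together fell from 1207 and 1159 CPM per kb in Veh to 944 and 854 for RA, 452 and 431 for NR, and 382 and 402 for NRRA. These shares and sums are descriptions and were not tested themselves.

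**Figure D2:**
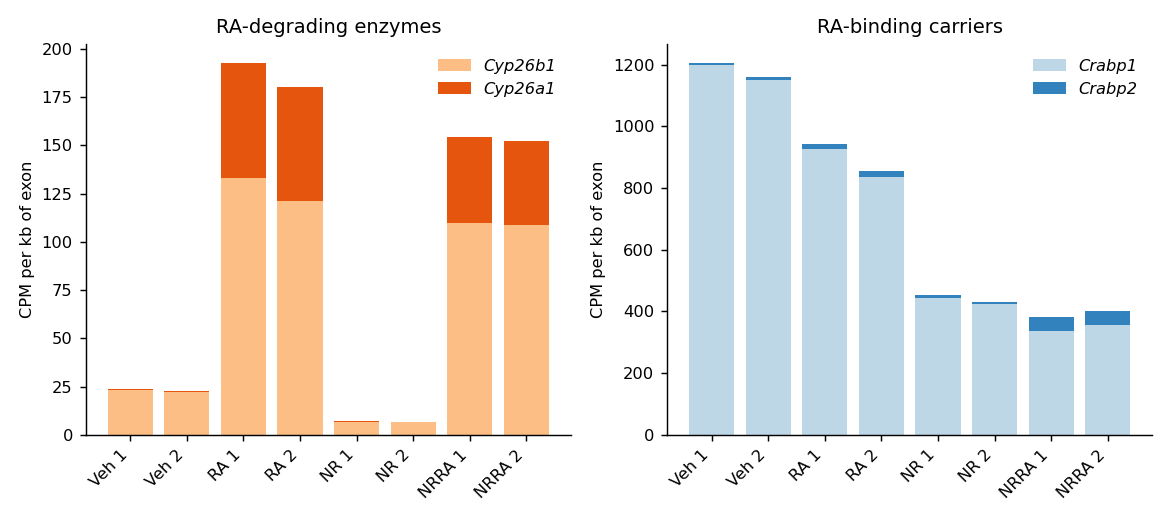
Stacked bars of the RA-degrading enzymes (left) and of the RA carriers (right) in each library, in CPM per kb of exon, with 1 bar per library. The *Cyp26a1* part of the left bars is visible only in RA and NRRA, where it takes 28.6 to 33.0% of the bar, and the *Crabp2* part of the right bars is largest in NRRA, at 12.1 and 11.9%.

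Among the enzymes of retinal turnover, the reductase *Dhrs3* (ENSMUSG00000066026, chromosome 4 from 144892827 to 144928209, plus strand) rose strongly with RA. Its level was 12.9 and 13.3 CPM for Veh, 130 and 118 for RA, 17.0 and 15.0 for NR, and 187 and 194 for NRRA. All libraries with RA lay above all libraries without it, and NRRA lay above RA. The log2 fold change was 3.24 in RA vs Veh (SE 0.073, adjusted p = 8.68e-22) and 3.58 in NRRA vs NR (SE 0.0668, adjusted p = 6.88e-24).

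*Rdh10* (ENSMUSG00000025921, chromosome 1 from 16105774 to 16133734, plus strand), which acts in the opposite direction to *Dhrs3*, was read at 11.8 and 12.3 CPM for Veh, 10.96 and 9.81 for RA, 13.5 and 14.2 for NR, and 9.90 and 9.41 for NRRA. The level was highest in NR and the differences were small. The log2 fold change of -0.22 in RA vs Veh did not pass the test (SE 0.104, adjusted p = 0.0868), whereas that of -0.53 in NRRA vs NR did, below 2-fold (SE 0.0963, adjusted p = 6.44e-05). Per kb of exon, the level of *Dhrs3* was 1.55 and 1.54 times that of *Rdh10* in Veh, 16.9 and 17.1 times in RA, 1.79 and 1.501 times in NR, and 26.8 and 29.3 times in NRRA. The ratio was close in Veh and NR and far higher in RA and NRRA.

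*Aldh1a2* (ENSMUSG00000013584, chromosome 9 from 71215789 to 71296243, plus strand), which carries out the last step to RA, was read at 13.6 and 12.1 CPM for Veh, 11.8 and 10.5 for RA, 13.7 and 13.0 for NR, and 17.5 and 16.7 for NRRA. The NRRA libraries lay above and the RA libraries below all others, within a narrow range. The log2 fold change was -0.22 in RA vs Veh, which did not pass the test (SE 0.103, adjusted p = 0.0896). In NRRA vs NR it was 0.36 (SE 0.0898, adjusted p = 0.00201), below 2-fold, and the adjusted p was 0.0503 with DESeq2 and 0.0537 without NR replicate 2.

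The retinol receptor *Stra6* (ENSMUSG00000032327, chromosome 9 from 58063788 to 58153996, plus strand) was read at 1.09 and 1.77 CPM for Veh, 38.6 and 37.1 for RA, 0.193 and 0.570 for NR, and 14.5 and 14.1 for NRRA. The 4 libraries with RA held 405 to 1069 reads, the Veh libraries 22 and 34 and the NR libraries 4 and 15, so its level in NR is known only roughly. RA raised *Stra6* by 4.73 on the log2 scale in complete medium (SE 0.146, adjusted p = 5.24e-19) and by 5.13 in NR medium (SE 0.209, adjusted p = 9.72e-17). The latter was 6.16 without NR replicate 2, so its SE, derived from the F statistic, understates the uncertainty. In NR vs Veh, with the same NR libraries, the SE was 0.38.

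*Lrat* (ENSMUSG00000028003, chromosome 3 from 82892579 to 82903973, minus strand), the storage enzyme, was close to the limit of detection. It had 5 and 6 reads in Veh, 5 and 15 for RA, 5 and 8 for NR, and 33 and 36 for NRRA, which are levels of 0.248 and 0.313, 0.255 and 0.520, 0.241 and 0.304, and 1.18 and 1.16 CPM. The NRRA libraries stood above the 6 others, and the other conditions overlapped. The log2 fold change was 2.06 in NRRA vs NR (SE 0.412, adjusted p = 0.000191) and 0.55 in RA vs Veh, which did not pass the test (SE 0.548, adjusted p = 0.453).

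Nutrient restriction without RA (NR vs Veh) lowered *Cyp26b1*, *Crabp1* and *Stra6*. These 3 of the 9 genes were called, all lower, against 8.29% of all tested genes (5.33% higher and 2.96% lower). At an adjusted p under 0.05 alone, 1 gene was higher and 3 were lower (43.9% of all tested genes, 21.7% higher and 22.2% lower). The median log2 fold change of the 9 was -0.13, beside 0.0057 over all tested genes. *Cyp26b1* fell by 1.77 on the log2 scale (SE 0.0562, adjusted p = 2.92e-19), a level 3.41-fold lower. *Crabp1* fell by 1.44 (SE 0.0461, adjusted p = 3.52e-19) and *Stra6* by 1.81 (SE 0.38, adjusted p = 0.000335). Without NR replicate 2, which held 15 of the 19 reads of *Stra6* in NR, the fall of *Stra6* was 2.83. *Dhrs3* was higher by 0.28 (SE 0.0939, adjusted p = 0.0172), and this was lost without Veh replicate 1 (adjusted p = 0.0577) or NR replicate 1 (adjusted p = 0.134). The other 5 genes had adjusted p between 0.0973 and 0.985 and log2 fold changes between -0.61 (*Cyp26a1*, SE 0.452) and 0.21 (*Rdh10*, SE 0.0996). In the same comparison the summed fibroblast markers were higher by 0.72 on the log2 scale, and those of peritubular myoid cells higher by 2.61. The myoid sum was mostly *Acta2*, and the median log2 fold change of the myoid markers was 1.54. The summed markers of undifferentiated spermatogonia were lower by 0.22, and those of differentiating spermatogonia changed by 0.057. At an adjusted p under 0.05, 5 of the 9 undifferentiated markers were lower and 2 higher (*Zbtb16* by 0.58, *Id4* by 0.55). Of the 6 differentiating markers 4 were higher and 1 lower. The part of these marker shifts in the falls of the 3 genes was not tested.

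With RA present, nutrient restriction (NRRA vs RA) again went with less *Crabp1* and *Stra6* but left *Cyp26b1* nearly as high. Of the 9 genes 4 were called, *Crabp2* and *Lrat* higher and *Crabp1* and *Stra6* lower, against 8.29% of all tested genes (4.61% higher and 3.68% lower). At an adjusted p under 0.05 alone, 4 were higher and 4 lower (40.3% of all tested genes, 20.9% higher and 19.4% lower). *Crabp2* rose by 1.33 on the log2 scale (SE 0.063, adjusted p = 1.19e-15) and *Lrat* by 1.497 (SE 0.375, adjusted p = 0.00206). The rise of *Lrat* was 2.17 without RA replicate 2 and had an adjusted p of 0.0739 with DESeq2. *Crabp1* fell by 1.35 (SE 0.046, adjusted p = 9.27e-19) and *Stra6* by 1.41 (SE 0.0872, adjusted p = 3.48e-13). Below 2-fold, *Dhrs3* rose by 0.62 (adjusted p = 1.95e-10) and *Aldh1a2* by 0.63 (adjusted p = 3.42e-06), while *Cyp26a1* fell by 0.43 (adjusted p = 6.11e-08) and *Cyp26b1* by 0.22 (adjusted p = 0.000204). The log2 fold change of *Rdh10* was -0.096 (SE 0.101, adjusted p = 0.489). The summed fibroblast markers were higher by 0.66 in this comparison, those of peritubular myoid cells higher by 3.90 and those of undifferentiated spermatogonia lower by 1.10 on the log2 scale. The myoid sum was mostly *Acta2*, and the median log2 fold change of the myoid markers was 1.99. At an adjusted p under 0.05, 6 of the 9 undifferentiated markers were lower and 2 higher (*Id4* by 1.94, *Zbtb16* by 0.16). Of the 12 fibroblast markers 9 were higher and 3 lower. The part of these marker shifts was not tested.

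The interaction of RA and nutrient restriction compared the RA effect of one medium with that of the other. Of the 9 genes 2 were called, *Cyp26b1* and *Crabp2*, both with a larger rise in NR medium, against 2.24% of all tested genes (0.786% higher and 1.46% lower). For *Cyp26b1* the effect of RA was larger in NR medium by 1.55 on the log2 scale (SE 0.0712, adjusted p = 2.63e-14), with a level in NRRA close to that in RA and a level in NR well below that in Veh. For *Crabp2* it was larger by 1.46 (SE 0.12, adjusted p = 1.89e-09), with a level in NR close to that in Veh and a level in NRRA above that in RA. The same sign of interaction therefore went with different libraries in the 2 genes. *Aldh1a2* (0.58, SE 0.137, adjusted p = 0.00488) and *Dhrs3* (0.34, SE 0.108, adjusted p = 0.0369) also passed the test, below 2-fold, which makes 4 genes upward at an adjusted p under 0.05 alone (13% of all tested genes, 6.37% higher and 6.58% lower). For *Aldh1a2* the adjusted p was 0.0545 with DESeq2, 0.0588 without RA replicate 2 and 0.0516 without NR replicate 2. For *Dhrs3* it was 0.0763 with DESeq2 and between 0.0542 and 0.354 without any 1 of 7 of the 8 libraries. The other 5 genes did not pass, at 0.18 for *Cyp26a1* (SE 0.442, adjusted p = 0.862), 0.086 for *Crabp1* (SE 0.0642, adjusted p = 0.439), -0.30 for *Rdh10* (SE 0.142, adjusted p = 0.178), 0.40 for *Stra6* (SE 0.401, adjusted p = 0.585) and 1.52 for *Lrat* (SE 0.73, adjusted p = 0.192). The standard errors of *Cyp26a1*, *Stra6* and *Lrat*, which had few reads in NR, were the widest of the 9.

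**Figure D3:**
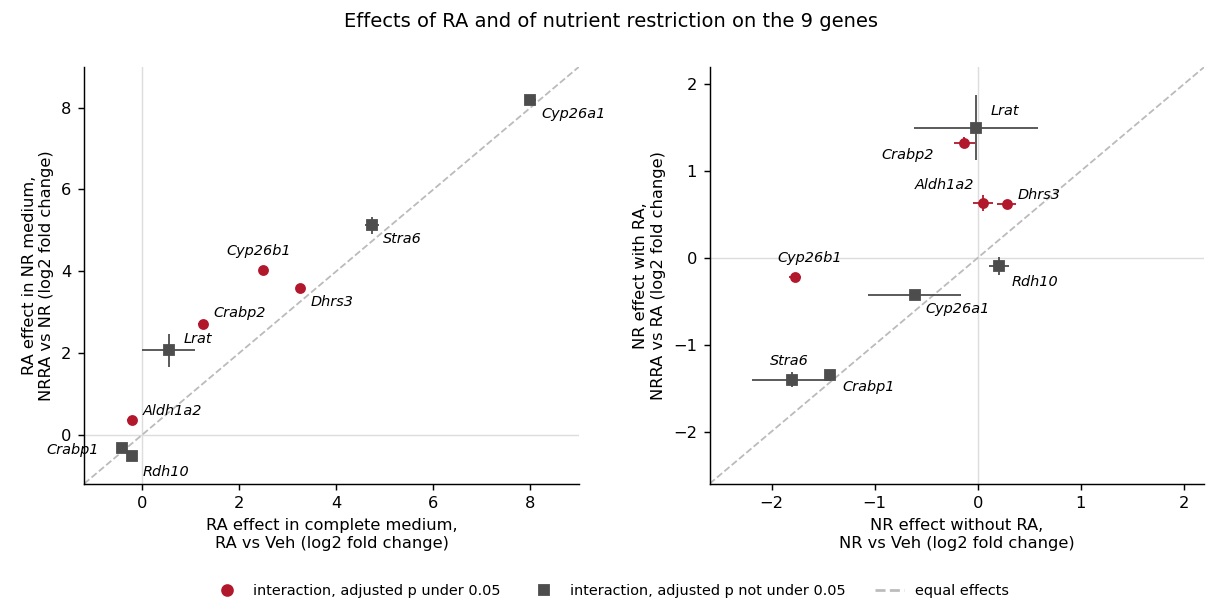
Log2 fold changes of the 9 genes, with RA in NR medium plotted against RA in complete medium (left) and nutrient restriction with RA plotted against nutrient restriction without RA (right). Bars are SE derived from the F statistic, and they understate the uncertainty of the RA effects of *Cyp26a1* and *Stra6*. The dashed line marks equal effects, and red circles are genes whose interaction had an adjusted p under 0.05. *Cyp26b1* and *Crabp2* lie furthest above the line among these, by 1.55 and 1.46, while *Crabp1* lies near it in both panels.

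With both treatments (NRRA vs Veh) 7 of the 9 genes were called, 6 higher and *Crabp1* lower, against 15.9% of all tested genes (9.91% higher and 6.02% lower). At an adjusted p under 0.05 alone, 7 were higher and 2 lower (58.9% of all tested genes, 30.1% higher and 28.7% lower). The median log2 fold change of the 9 was 2.26, beside 0.030 over all tested genes. The rises were 7.57 for *Cyp26a1* (SE 0.124, adjusted p = 1.45e-25), 3.86 for *Dhrs3* (SE 0.071, adjusted p = 1.76e-24), 3.32 for *Stra6* (SE 0.169, adjusted p = 3.66e-15), 2.57 for *Crabp2* (SE 0.0757, adjusted p = 2.92e-20), 2.26 for *Cyp26b1* (SE 0.0479, adjusted p = 3.13e-23) and 2.04 for *Lrat* (SE 0.433, adjusted p = 0.000227). *Crabp1* fell by 1.77 (SE 0.0464, adjusted p = 2.61e-21), to a level 3.41-fold lower. Below 2-fold, *Aldh1a2* rose by 0.41 (SE 0.0935, adjusted p = 0.000507) and *Rdh10* fell by 0.32 (SE 0.102, adjusted p = 0.00887, or 0.0687 without NRRA replicate 2). RA vs Veh, NR vs Veh and NRRA vs Veh share the Veh libraries, so their values stand side by side only. In NRRA vs Veh the summed fibroblast markers were higher by 0.37 on the log2 scale, germ cell markers higher by 0.38 and those of peritubular myoid cells higher by 3.39. The myoid sum was mostly *Acta2*, and the median log2 fold change of the myoid markers was 1.85. The summed markers of differentiating spermatogonia were higher by 2.71 and those of undifferentiated spermatogonia lower by 2.52. At an adjusted p under 0.05, 3 of the 6 germ cell markers were higher and 2 lower (*Dnd1* by 0.28, *Mael* by 0.15). The part of these marker shifts in the changes of the 9 genes was not tested.

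Compared per kb of exon, the 9 genes ranked differently in each condition. In Veh the order was *Crabp1* (1175 ± 33.6 CPM per kb, SD, n = 2), *Cyp26b1* (22.8 ± 0.777), *Crabp2* (7.91 ± 0.314), *Aldh1a2* (5.68 ± 0.478), *Dhrs3* (4.48 ± 0.112), *Rdh10* (2.90 ± 0.0867), *Stra6* (0.245 ± 0.0827), *Cyp26a1* (0.230 ± 0.028) and *Lrat* (0.0524 ± 0.00859). In RA, *Cyp26a1* (59.6 ± 0.12) was the third after *Crabp1* (880.4 ± 63.4) and *Cyp26b1* (127 ± 8.7), and *Dhrs3* (42.4 ± 3.03) the fourth. In NR, *Crabp2* (7.22 ± 0.266) ranked above *Cyp26b1* (6.70 ± 0.237). In NRRA the order after *Crabp1* (345 ± 13.4) was *Cyp26b1* (109 ± 0.672), *Dhrs3* (65.0 ± 1.65), *Crabp2* (47.0 ± 1.23) and *Cyp26a1* (44.3 ± 0.886). Neighbours in these orders were separated in every library except *Stra6* and *Cyp26a1* in Veh, and *Aldh1a2* and *Dhrs3* as well as *Stra6* and *Lrat* in NR, whose libraries overlapped. The order of *Cyp26a1* (5 and 9 reads) and *Stra6* (4 and 15 reads) in NR rests on too few reads to be certain.

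The wider set of retinoid genes, chosen by symbol, responded less uniformly. Of 34 such genes 22 had enough reads to be tested, and 3 of them were called in RA vs Veh, 4 in NR vs Veh and 6 in NRRA vs Veh, beside 7.49%, 8.29% and 15.9% of all tested genes. The median log2 fold change of the 22 was 0.052 in RA vs Veh, -0.021 in NR vs Veh and 0.20 in NRRA vs Veh. At an adjusted p under 0.05 and whatever the size of the change, 4 were higher and 4 lower in RA vs Veh, 6 higher and 4 lower in NR vs Veh, and 9 higher and 5 lower in NRRA vs Veh, beside 43.2%, 43.9% and 58.9% of all tested genes in either direction. At an adjusted p under 0.05 alone the shares of the 22 genes were near those over all tested genes. For called genes they were above them, on few genes. The 12 genes without enough reads were *Rbp2*, *Rbp7*, *Ttr*, *Rdh1*, *Rdh7*, *Rdh9*, *Rdh16*, *Sdr16c5*, *Adh4*, *Aldh1a7*, *Aldh8a1* and *Rpe65*.

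*Cyp26c1*, the third gene of the RA-degrading family, was read at 0.248 and 0.625 CPM for Veh, 7.19 and 7.28 for RA, 0.385 and 0.532 for NR, and 8.004 and 8.09 for NRRA. Like *Cyp26a1* it was near the limit of detection without RA. It rose by 4.05 on the log2 scale in RA vs Veh (SE 0.252, adjusted p = 8.42e-13) and by 4.20 in NRRA vs Veh (SE 0.242, adjusted p = 4.63e-14), and by 4.86 and 4.99 without Veh replicate 2.

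The retinal dehydrogenases did not move together. *Aldh1a3* was read at 7.73 and 6.15 CPM for Veh, 1.99 and 2.08 for RA, 3.28 and 3.34 for NR, and 0.929 and 0.931 for NRRA. Each treatment lowered it and both together lowered it most, with log2 fold changes of -1.76 in RA vs Veh (SE 0.178, adjusted p = 9.24e-09), -1.07 in NR vs Veh (SE 0.164, adjusted p = 6.05e-06) and -2.89 in NRRA vs Veh (SE 0.199, adjusted p = 1.77e-12). *Aldh1a1* had 10 to 46 reads per library and rose by 1.47 in NR vs Veh (SE 0.338, adjusted p = 0.000814) and by 1.28 in NRRA vs Veh (SE 0.336, adjusted p = 0.00194). *Aldh1a2*, described above, changed by less than 2-fold throughout.

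Among the retinol oxidoreductases, *Dhrs9* was read at 11.2 and 13.3 CPM for Veh, 17.0 and 18.1 for RA, 3.61 and 4.48 for NR, and 4.72 and 4.30 for NRRA. Both NR media thus held less of it than complete medium, with log2 fold changes of -1.58 in NR vs Veh (SE 0.135, adjusted p = 2.50e-10) and -1.45 in NRRA vs Veh (SE 0.126, adjusted p = 2.01e-10). *Adh1*, an alcohol dehydrogenase that accepts retinol, was read at 1.93 and 1.35 CPM for Veh, 1.78 and 1.80 for RA, 3.04 and 2.77 for NR, and 6.25 and 5.97 for NRRA, and rose by 1.88 in NRRA vs Veh (SE 0.187, adjusted p = 2.34e-09). *Bco1*, which cleaves beta-carotene to retinal, had 3 to 31 reads per library and was called higher in RA vs Veh (2.15, SE 0.481, adjusted p = 0.000684), NR vs Veh (1.59, SE 0.522, adjusted p = 0.0151) and NRRA vs Veh (1.78, SE 0.492, adjusted p = 0.00304). These 3 values of *Bco1* were 2.77, 2.21 and 2.38 without Veh replicate 2, and without Veh replicate 1 those of NR vs Veh and NRRA vs Veh no longer passed the test (adjusted p = 0.154 and 0.0636). The value of *Bco1* in NR vs Veh also failed the test with DESeq2 (adjusted p = 0.0866) and without NR replicate 2 (adjusted p = 0.184).

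**Figure D4:**
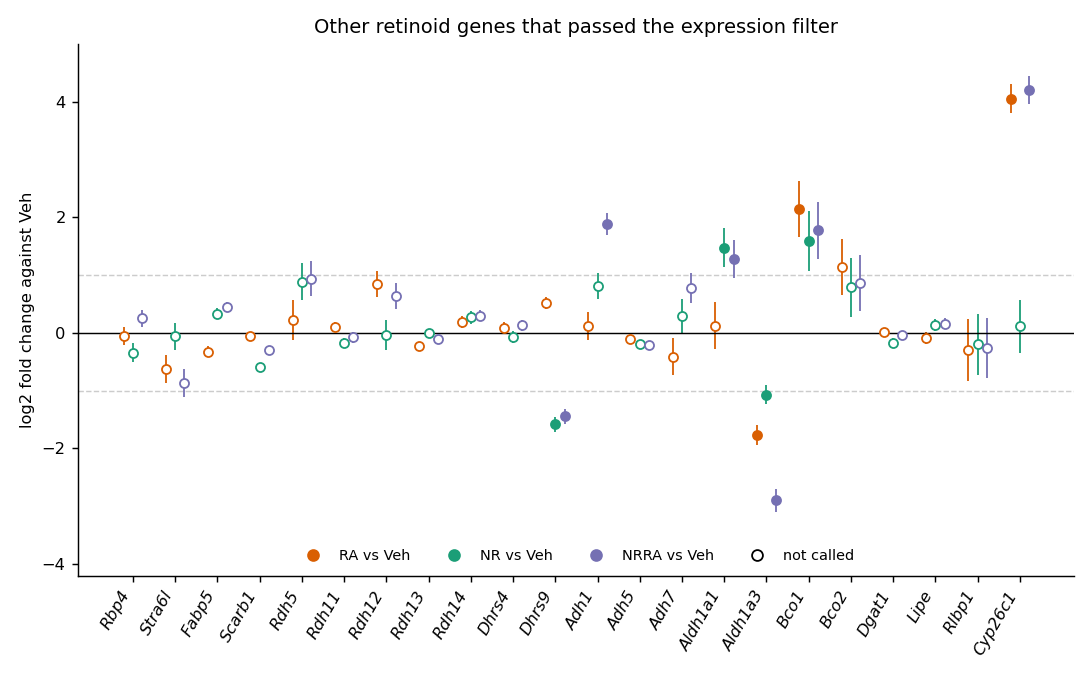
Log2 fold changes against Veh of the 22 other retinoid genes that had enough reads. Bars are SE derived from the F statistic, filled points are called genes and dashed lines lie at 2-fold. *Cyp26c1* is raised in RA and NRRA, *Aldh1a3* is lowered in all 3 comparisons, which share the Veh libraries, and *Dhrs9* is lowered in NR and NRRA.

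For each of the 7 genes called in any comparison, the tested genes with the most similar pattern were sought among 16641 genes with a mean of at least 1 CPM, by Pearson's r of log2 CPM over the 8 libraries. The 8 libraries are 4 pairs, so r mostly reflects the order of 4 conditions, and many genes reach a high value. The closest were *Piezo2* and *Slc25a51* for *Cyp26a1* (r 0.998 for both), *Stard7* and *Ssh2* for *Cyp26b1* (0.998 and 0.997), *Tpm1* and *Evpl* for *Crabp2* (0.999 and 0.996), and *Htra1* and *Fer1l4* for *Dhrs3* (0.996 for both). For *Stra6* they were *Dr1* and *Arnt2* (0.997 and 0.994), for *Crabp1* *Arhgdib* and *Capn2* (0.998 and 0.997), and for *Lrat* *Gm9949* and *Kcnj4* (0.991 and 0.986). The number of genes with r above 0.95 was 674 for *Crabp1*, 377 for *Dhrs3*, 315 for *Cyp26a1*, 253 for *Cyp26b1*, 233 for *Crabp2*, 196 for *Stra6* and 21 for *Lrat*.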

How the data were processed

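Total RNA of mouse SSC cultures was sequenced as poly(A) libraries in 4 conditions of 2 libraries each. The authors mapped the reads and deposited raw counts per gene, which are whole numbers without normalization. The submitters' processing notes name STAR 2.6.1c, featureCounts 1.6.4 and the mm10 build, and the strand setting of the counting is not given in the sources used here. Conditions were taken from the sample labels, to which all columns of counts were matched.

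Counts were filtered with edgeR's filterByExpr, scaled with TMM and fitted with 1 coefficient per condition over all 8 libraries (R 4.3.3, edgeR 4.0.16). The quasi-likelihood F test with Benjamini-Hochberg adjustment over the 20477 tested genes was used for 5 pairwise comparisons and for the interaction. A gene was called at an adjusted p under 0.05 and at least 2-fold. SE is the absolute log2 fold change divided by the square root of F. This is not a directly estimated standard error. It understates the uncertainty where a large change starts from few reads, as for the RA effects of *Cyp26a1*, *Cyp26c1* and *Stra6*. Totals were 19261333 to 30023585 counts per library, and with 2 libraries per condition the residual degrees of freedom were 4. The script was tested on simulated data. Of 55421 identifiers 55240 matched GENCODE M21 (GRCm38), which gave coordinates and exon length, and no exon of the 9 genes overlapped another gene. Promoter windows came from RefSeq and figures were drawn with matplotlib 3.10.9. Alternatives were DESeq2 1.42.0, RLE scaling, no filter, no fold threshold, the replicate block, fits on the compared groups only and leaving out each library. For the other retinoid genes, *Stra8* and *Rarb* they were added after seeing the data.

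The 9 genes and all lists were chosen with earlier results of these data known. Named beside the 9 genes are the other retinoid genes called in a comparison against Veh, *Stra8* and *Rarb*, and the 2 genes with the most similar pattern per called gene. Single markers of the cell type lists and the retinoid genes without enough reads are named as well. Lists are described by counts, medians and summed levels. A further gene of these lists is not reported here and is left out of their counts. The knockout, testis and single-cell experiments were not analysed here.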

Additional observations from a re-analysis of the deposited data

Results flagged for a closer look

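For 4 of the 9 genes the effect of RA differed between complete and NR medium by the test of the interaction. The effect in NR medium minus that in complete medium was 1.55 on the log2 scale for *Cyp26b1* (edgeR adjusted p = 2.63e-14), from effects of 2.48 and 4.03. It was 1.46 for *Crabp2* (adjusted p = 1.89e-09), from effects of 1.24 and 2.70. It was 0.58 for *Aldh1a2* (adjusted p = 0.00488), from effects of -0.22 and 0.36. It was 0.34 for *Dhrs3* (adjusted p = 0.0369), from effects of 3.24 and 3.58. The values of *Cyp26b1* and *Crabp2* passed the test in all 12 alternatives, between 1.48 and 1.63 and between 1.38 and 1.49, while those of *Aldh1a2* and *Dhrs3* passed in 9 and 4 of 12.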

How the results depend on the processing

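The number of the 9 genes called in each comparison (5 in RA vs Veh, 3 in NR vs Veh, 7 in NRRA vs Veh, 4 in NRRA vs RA, 6 in NRRA vs NR and 2 in the interaction) was the same with RLE scaling, without the filter, with the replicate block, in fits on the compared groups only (not applicable to the interaction) and without any 1 library. With DESeq2 it was 3 in NRRA vs RA, where *Lrat* was lost, and the same elsewhere. Without the fold threshold the number rose in every comparison. It was 6 in RA vs Veh, 4 in NR vs Veh, 9 in NRRA vs Veh, 8 in NRRA vs RA, 9 in NRRA vs NR and 4 in the interaction. Over all tested genes the numbers were then 8837 (RA vs Veh), 8985 (NR vs Veh), 12051 (NRRA vs Veh), 8254 (NRRA vs RA), 8888 (NRRA vs NR) and 2652 (interaction). DESeq2 called 268 genes in the interaction where edgeR called 459, and the cause was not tested. Signs reversed only for values that had not passed the test. Without 1 library these were *Aldh1a2* in NR vs Veh (-0.017 without Veh replicate 2, 0.16 at most), *Lrat* in NR vs Veh (0.16 without Veh replicate 2 and 0.14 without NR replicate 1, -0.19 at the lowest), *Lrat* in RA vs Veh (-0.13 without RA replicate 2, 0.88 at most), and the interactions of *Stra6* (-0.014 without Veh replicate 2 and -0.13 without NR replicate 1, 1.41 at most) and *Cyp26a1* (-0.054 without NR replicate 1, 0.44 at most). Values that no longer reached an adjusted p under 0.05 concerned *Dhrs3*, *Aldh1a2*, *Lrat*, *Rdh10* and *Bco1*, as given beside them. Of these, only the values of *Lrat* and *Bco1* had been called. Of 690 alternative values of single genes among the 9, 666 kept sign and side of the threshold. Same-numbered libraries did not deviate together (correlations from -0.055 to 0.035), so the numbers were not taken to pair them, and with the replicate block 1518 genes were called in RA vs Veh instead of 1534. *Stra6* in NR, *Lrat* and *Cyp26a1* without RA rest on 4 to 15 reads per library, which limits their fold changes.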
